A study of Homo sapiens with 4 samples.

Results

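The mRNAs of the ubiquitin-specific protease (USP) family were examined in sub-polysome and polysome RNA of MDA-MB-231 cells reconstituted with METTL3-WT or METTL3-K177Q. Members were taken by name, as genes of class mRNA whose symbol is USP followed by digits and at most 1 letter. No measured value is part of this rule, but members were chosen with earlier results of these data known. This gave 51 of the 28198 genes in the table. Of these, 38 averaged at least 1 FPKM over the 4 libraries, among 10905 such genes in all; FPKM counts fragments per kilobase of mRNA and per unit of library depth. MDA-MB-231 is a mesenchymal-like breast cancer cell line. All cells had been depleted of their own METTL3, the catalytic subunit of the m6A RNA methyltransferase, and carried either wild-type METTL3 or METTL3-K177Q, in which a lysine is replaced by glutamine to mimic acetylation, both introduced by lentivirus. Before lysis all cells received 100 µg/mL cycloheximide for 5 min, which holds ribosomes on the mRNA, and sucrose gradient fractions were combined into a sub-polysome and a polysome pool. The 4 libraries analysed here were those labelled replicate 2, with 1 library per group, so that no difference between groups was tested and none has a biological error.

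USPs are cysteine proteases that remove ubiquitin from proteins or take ubiquitin chains apart. They form the main family of human deubiquitinases, and through their substrates they act in DNA repair, chromatin, splicing, receptor traffic, mitochondrial turnover and the recycling of free ubiquitin. The mRNAs found in heavy polysomes are those with many ribosomes, so the ratio of polysome to sub-polysome RNA is used as a measure of how well an mRNA is translated.

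By an approximate estimate, the libraries held between 24800000 and 26800000 fragments. The total FPKM ranged from 767949 to 1037594, so equal FPKM is not an equal share of a library. METTL3 was listed at 9.39 and 5.07 FPKM in the sub-polysome and at 38.7 and 29.5 FPKM in the polysome libraries of METTL3-WT and METTL3-K177Q cells, and these values do not separate the introduced from the endogenous transcript. The mesenchymal and basal markers VIM (677 to 1543 FPKM), AXL (158 to 235), CD44 (110 to 151) and EGFR (9.97 to 12.3) were present in all 4 libraries. The luminal markers ESR1, PGR and CDH1 reached at most 0.632 FPKM, whereas ERBB2 (12.2 to 28.3) and GATA3 (2.83 to 4.95), which were listed as absent or low in this line, were detected.

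The USP mRNAs together made up a small part of each library, and a few of them held a large share of the family's signal. Their summed FPKM was 314 in the METTL3-WT sub-polysome, 394 in the METTL3-WT polysome, 281 in the METTL3-K177Q sub-polysome and 398 in the METTL3-K177Q polysome library. As a share of the total FPKM this was 0.0349%, 0.0481%, 0.0271% and 0.0519%, so that both polysome libraries were above both sub-polysome libraries. The 5 most abundant members held between 48.3% and 54.5% of the family's sum. Among the 38 members that passed the minimum, 9 had a mean of at least 10 FPKM, 9 had a mean from 5 to under 10 FPKM, and 20 were under 5 FPKM. FPKM is relative to the other RNA of the same library, so less USP mRNA and more of other RNA in a fraction cannot be told apart.

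All values of single members below are FPKM in the order METTL3-WT sub-polysome, METTL3-WT polysome, METTL3-K177Q sub-polysome and METTL3-K177Q polysome. The most abundant member was USP39, a splicing factor of the U4/U6.U5 tri-snRNP that lacks protease activity, at 54.9, 63.2, 52.2 and 63.0 FPKM. Both polysome values lay above both sub-polysome values, by little. USP22, the deubiquitinase subunit of the SAGA coactivator that acts on histone H2B, followed at 33.3, 37.1, 33.0 and 40.7 FPKM, with the same order of fractions. USP5 (isopeptidase T), which takes apart free ubiquitin chains, was at 20.3, 46.7, 21.0 and 51.6 FPKM. USP11, which acts in repair by homologous recombination, was at 17.5, 43.1, 16.0 and 44.2 FPKM. In these 2 members the polysome values were more than double the sub-polysome values in both genotypes. USP10, which binds the stress granule protein G3BP and acts on p53, was at 25.5, 20.8, 18.2 and 17.4 FPKM, and here the METTL3-WT sub-polysome library stood highest. The plot of levels by library gives all 38 members.

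**Figure D1:**
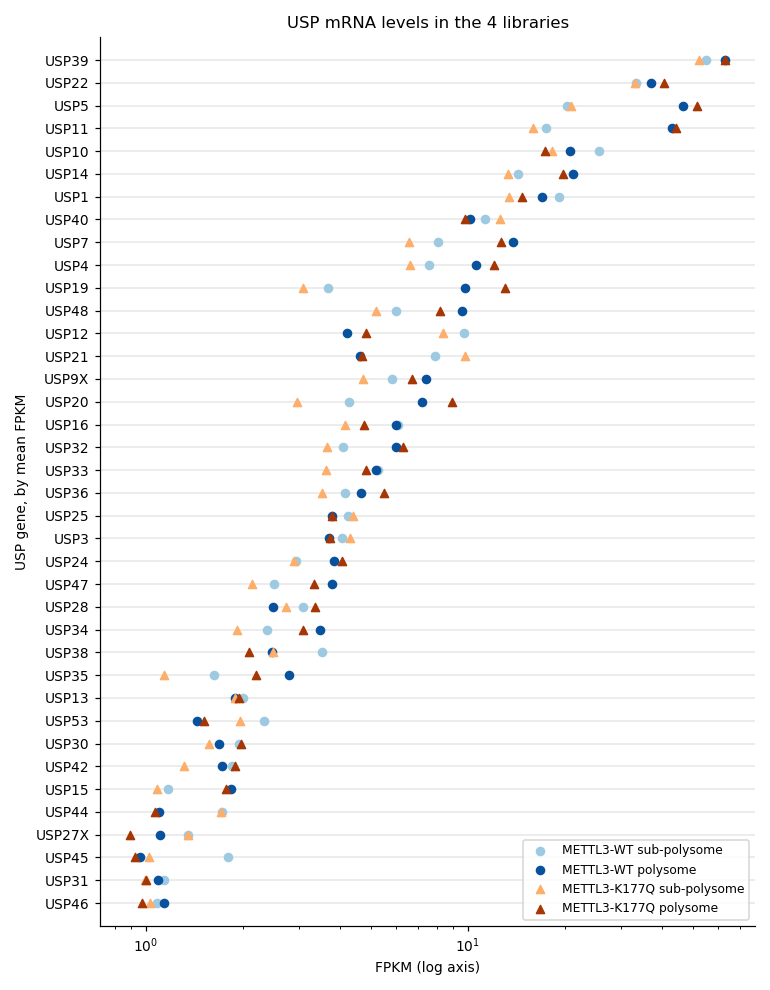
FPKM (log axis) of the 38 kept USP genes, 1 row per gene ordered by mean, with 1 point for each of the 4 libraries. Values run from 0.892 FPKM for USP27X to 63.2 FPKM for USP39, both in polysome libraries; in USP5, USP11 and USP19 the polysome points (dark) stand far to the right of the sub-polysome points (light), and in USP12 and USP21 they stand to the left.

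In METTL3-WT cells the USP mRNAs were spread over both fractions, with no common direction. The log2 ratio of polysome to sub-polysome FPKM, with 0.1 added to each value, ranged from -1.19 to 1.39. Above 0 were 19 of 38 members (50.0%), against 57.3% of all genes and 65.3% of the mRNAs of like coding-sequence length described below. The median was 0.03, against 0.14 over all 10905 genes, and it was below 0 with size factors (-0.06), when centred on all genes (-0.12) and when a trend on coding-sequence length was removed (-0.26). At least 1.5-fold higher in the polysome were 8 of 38 members (21.1%), against 28.1% of all genes, and at least 1.5-fold lower were 5 (13.2%), against 19.1% of all genes. Among the mRNAs of like coding-sequence length, 35.3% were higher and 9.48% were lower. This split of 8 to 5 was 13 to 3 of 39 members after scaling to equal totals (TPM), 6 to 6 with size factors or centring, and 3 to 7 with the length trend removed. The members higher in the polysome were USP19, USP11, USP5, USP7, USP35, USP20, USP48 and USP15, and those lower were USP12, USP45, USP21, USP53 and USP44.

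The highest ratio was that of USP19, which is anchored in the membrane of the endoplasmic reticulum and whose gene lies at chr3:49108050-49120823. It was at 3.68, 9.83, 3.07 and 13.1 FPKM, so both polysome values were well above both sub-polysome values. On the log2 scale its ratio was 1.39 (2.62-fold) in METTL3-WT cells, followed by USP11 at 1.30 (2.46-fold) and USP5 at 1.20 (2.29-fold). USP12, a protease that needs the partner WDR48 (UAF1) for activity, stood at the other end at 9.75, 4.23, 8.35 and 4.83 FPKM, with both polysome values below both sub-polysome values and a log2 ratio of -1.19. USP45, which acts on the repair nuclease subunit ERCC1, was at 1.80, 0.960, 1.02 and 0.926 FPKM with a ratio of -0.84. Only the METTL3-WT sub-polysome library stood apart for this mRNA. USP21, which acts on histone H2A, was at 7.89, 4.62, 9.82 and 4.70 FPKM with a ratio of -0.76, and its fractions did not overlap.

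The bases around the start codon of these 6 mRNAs are shown because the members differ most in polysome share and because this stretch is where scanning ribosomes begin translation. They are taken from the canonical transcript in GENCODE 44 on GRCh38, written in the sense of the mRNA from 9 bases before the start codon to 6 bases after it, with the ATG in capitals. The first 3 had the highest and the last 3 the lowest ratio in METTL3-WT cells.
USP19 (chr3:49119137-49119154, minus strand): cggctcaagATGtctggc
USP11 (chrX:47233035-47233052, plus strand): cggacggcgATGgcgacg
USP5 (chr12:6852171-6852188, plus strand): gccggtgtcATGgcggag
USP12 (chr13:27171631-27171648, minus strand): gctggccggATGgaaatc
USP45 (chr6:99510212-99510229, minus strand): aaataacagATGcgggtg
USP21 (chr1:161160632-161160649, plus strand): gtgtccacaATGccccag

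Counting the A of the start codon as position 1, a purine at position -3 and a G at position 4 are the bases that favour recognition of a start codon. A purine at -3 was present in 32 of 38 members (84.2%), against 87.6% of 10207 mRNAs, and a G at 4 in 17 (44.7%), against 54.5%. Both were present in 15 members (39.5%), against 47.7% of mRNAs. The 15 members with both had a median METTL3-WT log2 ratio of 0.53, and the others a median of -0.08. These medians were not computed over all mRNAs, and the part of the start codon's bases in the ratio was not tested. Of the sequences shown, USP11 and USP5 have both bases, USP19 and USP21 only the purine, USP12 only the G and USP45 neither.

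A further feature that the choice by name did not use was the number of ATGs ahead of the start codon, where ribosomes can begin an upstream reading frame. At least 1 such ATG was present in the 5' untranslated region of 22 of 38 members (57.9%), against 37.6% of 10267 mRNAs. The median log2 ratio in METTL3-WT cells was 0.34 in the 16 members without an upstream ATG, 0.22 in the 12 with 1 or 2, and -0.28 in the 10 with 3 or more. Over all mRNAs the same classes had medians of 0.32, 0.03 and -0.15. In METTL3-K177Q cells the members' medians were 0.52, 0.49 and -0.15. Of the 8 members that were at least 1.5-fold higher in the polysome in METTL3-WT cells, 7 had no upstream ATG and USP20 had 2. Of the 5 that were lower, USP45 had none, USP12 had 1, USP44 had 4, USP21 had 6 and USP53 had 17. Most mRNAs higher in the polysome in METTL3-WT cells also had no upstream ATG, 2267 against 758 with at least 1. Of the lower mRNAs, 810 had none and 827 had at least 1. Spearman's rho of the number of upstream ATGs with the ratio describes genes measured in the same libraries. It was -0.42 in METTL3-WT and -0.47 in METTL3-K177Q cells over the 38 members, against -0.22 and -0.15 over all mRNAs. With the translation efficiency ratio between the genotypes rho was -0.14 over the members, against 0.12 over all mRNAs. The 5' untranslated region was longer in members with more upstream ATGs, with a median of 125 bases in those without and 381 bases in those with 3 or more, and in USP39 and USP15 it is annotated with only 10 and 11 bases. The parts of length and of upstream ATGs were not tested.

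**Figure D2:**
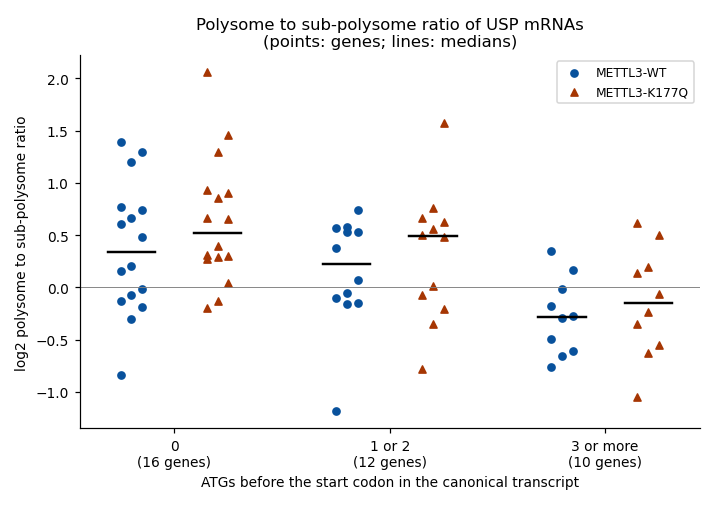
Log2 polysome to sub-polysome ratio (y axis) of 38 USP genes by the number of ATGs before the start codon (x axis), with 1 point per gene, METTL3-WT as circles and METTL3-K177Q as triangles, and lines at the medians. The classes of 0 and of 1 or 2 upstream ATGs have medians above 0 in both genotypes, and the class of 3 or more has medians of -0.28 and -0.15.

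In METTL3-K177Q cells more USP mRNAs were higher than lower in the polysome, relative to the sub-polysome. The log2 ratio ranged from -1.05 to 2.06, 26 of 38 members (68.4%) were above 0, against 57.2% of all genes and 73.6% of the mRNAs of like coding-sequence length described below, and the median was 0.31, against 0.16 over all genes. At least 1.5-fold higher in the polysome were 13 members (34.2%), against 30.2% of all genes, and 3 members (7.89%) were lower, against 21.3%. Among the mRNAs of like coding-sequence length 44.6% were higher and 5.80% were lower. This split of 13 to 3 was 24 to 1 of 39 members as TPM, against 50.2% and 12.6% of all genes. It was 8 to 4 with size factors or centring, against 25.4% and 24.5%, and 23.5% and 26.4%, of all genes. With the length trend removed it was 4 to 8, against 21.5% and 21.8%, and the members' median was -0.25. The 13 were USP19, USP20, USP11, USP5, USP7, USP35, USP4, USP32, USP15, USP34, USP48, USP47 and USP36, and the 3 lower were USP21, USP12 and USP44. USP7, which acts on MDM2, p53 and the DNA methyltransferase DNMT1, was 1.71-fold higher in the polysome in METTL3-WT and 1.91-fold in METTL3-K177Q cells. Between the genotypes, 18 members were higher in the polysome in both and 11 were lower in both. A further 8 were lower in METTL3-WT and higher in METTL3-K177Q cells, and USP46 had the reverse order. The shares of all genes, or of mRNAs of like coding-sequence length, in these classes were not computed.

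**Figure D3:**
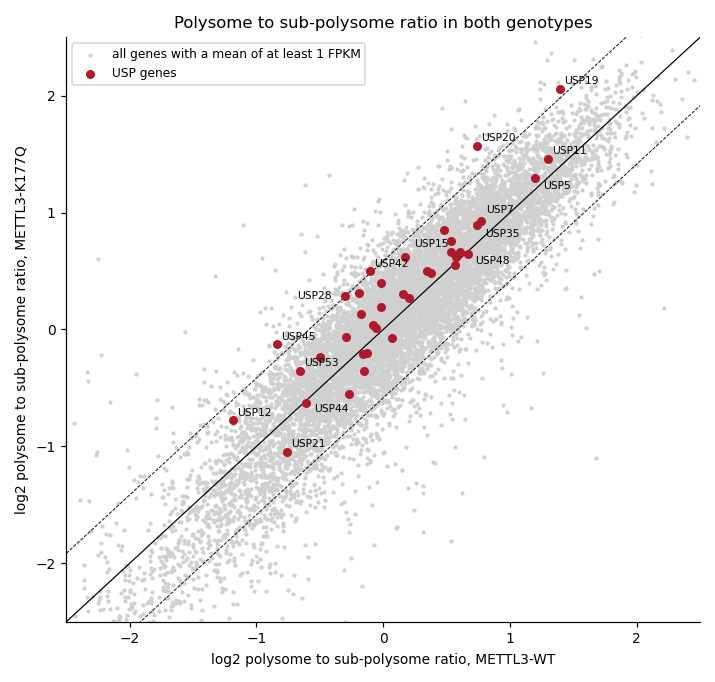
Log2 polysome to sub-polysome ratio in METTL3-WT (x axis) against METTL3-K177Q cells (y axis), with USP genes in red over all 10905 kept genes in grey; the solid line marks equal ratios, the dashed lines a 1.5-fold difference, and 279 genes lie outside the axes. USP20, USP45, USP19, USP42 and USP28 lie on or above the upper dashed line, USP28 only just, and no USP gene lies below the lower one.

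Between the genotypes, the family's median difference in FPKM was larger in sub-polysome than in polysome RNA, but not once the trend on coding-sequence length was removed. In sub-polysome RNA 33 of 38 members were lower in METTL3-K177Q cells, and the median log2 ratio was -0.20, against -0.004 over all genes. USP45 was the only member at least 1.5-fold lower (2.63%, against 2.94% of all genes), and 0 were higher, against 4.01%. As TPM the median was -0.40 and 9 of 39 members were at least 1.5-fold lower, against 9.85% of all genes. Once the length trend was taken out, the sub-polysome median was -0.07, close to the -0.06 of polysome RNA. In FPKM the 5 members above 0 were USP21 (0.31), USP40 (0.15), USP3 (0.08), USP25 (0.06) and USP5 (0.05). In polysome RNA the log2 ratios ranged from -0.33 to 0.42 with a median of -0.02, against -0.02 over all genes, and the members' median was 0.09 as TPM and 0.002 when centred on all genes. No member reached 1.5-fold in polysome RNA, against 2.13% of all genes higher and 3.13% lower.

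The translation efficiency ratio, which is the polysome to sub-polysome ratio in METTL3-K177Q cells divided by that in METTL3-WT cells, was above 0 on the log2 scale in 29 of 38 members (76.3%), against 48.9% of all genes. Its median was 0.15 (1.11-fold), against -0.01, and it ranged from -0.29 to 0.84. At least 1.5-fold higher were 5 members (13.2%), against 4.08% of all genes, and 0 were lower, against 7.03%. In 14 of the 29 members the sub-polysome value was lower and the polysome value was not lower in METTL3-K177Q cells, and in 14 both values were lower. In the remaining one, USP5, both were higher. As TPM the median was 0.44 with 12 of 39 members at least 1.5-fold higher, against 18.6% of all genes. That scaling also moved the median of all genes, by 0.30. Relative to all genes the members' median was 0.16 in FPKM and 0.16 as TPM.

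USP20, at chr9:129835458-129881828, had the highest translation efficiency ratio. This protease takes ubiquitin off the beta2-adrenergic receptor and was at 4.28, 7.20, 2.95 and 8.96 FPKM, so that the METTL3-K177Q libraries were both the lowest and the highest of the 4. Its log2 ratio of polysome to sub-polysome was 0.74 in METTL3-WT and 1.57 in METTL3-K177Q cells, and the translation efficiency ratio was 0.84 ± 0.12 (1.79-fold; ± is an approximate counting standard error for a single library, as in the values that follow). USP45, at chr6:99432325-99515423 and with the FPKM values given above, followed at 0.71 ± 0.22. Here the METTL3-WT sub-polysome value alone was high, and as few as 143 fragments stood behind a value. USP19 was at 0.67 ± 0.11, with a lower sub-polysome and a higher polysome value in METTL3-K177Q cells.

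USP42, a relative of the nucleolar USP36, lies at chr7:6104949-6161564 and was at 1.86, 1.72, 1.31 and 1.90 FPKM. Only its METTL3-K177Q sub-polysome value stood apart, and the translation efficiency ratio was 0.60 ± 0.19. USP28, which stabilises MYC and binds 53BP1, lies at chr11:113797875-113875572 and was at 3.09, 2.48, 2.73 and 3.35 FPKM. The order of its fractions was opposite in the genotypes, and its ratio of 0.59 ± 0.15 (1.51-fold) lay just inside the 1.5-fold limit. With a pseudocount of 1 FPKM, USP20 (0.70) was the only member of the 5 past that limit, against 1.46% of all genes. USP19 was then at 0.58. USP30, which is anchored in the outer membrane of mitochondria and opposes Parkin, lay just outside the limit at 0.50 ± 0.22, with 1.94, 1.69, 1.57 and 1.98 FPKM. An antisense gene, USP30-AS1, shares 163 exon bases with USP30 and was at 2.86, 0.274, 3.03 and 0.336 FPKM. The libraries keep strand, but whether the counting used it is not given in the sources used here.

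The 5 members past 1.5-fold are all of the active class. The 30 bases around the codon of the catalytic cysteine are shown to mark what these proteases share, with the cysteine codon (TGC or TGT) in capitals. They come from the canonical GENCODE 44 transcripts on GRCh38, found by the pattern of residues around this cysteine: glycine or glutamine, asparagine or alanine, threonine or serine, the cysteine, then an aromatic residue or histidine.
USP20 (chr9:129861557-129861586, plus strand, exon 8): aagaacctcgggaactccTGCtacatgaac
USP45 (chr6:99488693-99488722, minus strand, exon 6): acaaatttaggaaatactTGCttttttaat
USP19 (chr3:49115496-49115525, minus strand, exon 12): gtcaatttaggcaacaccTGCttcatgaac
USP42 (chr7:6115421-6115450, plus strand, exon 3): cagaatttgggcaataccTGTtttgccaat
USP28 (chr11:113840610-113840639, minus strand, exon 5): aaaaatgttggcaatacaTGTtggtttagt

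The pattern was found in 45 of 51 members (88.2%), with TGC in 25 and TGT in 20 of them. Among all 10267 kept mRNAs with an annotated start it was in 47 (0.458%), of which 34 are USP genes. Among the members with a match are USP53 and USP54, usually classed as inactive, so a match does not mark activity. The pattern was not found in USP10, USP18, USP39, USP40, USP47 and USP50. A missing match says only that the pattern is not in the translated canonical transcript.

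**Figure D4:**
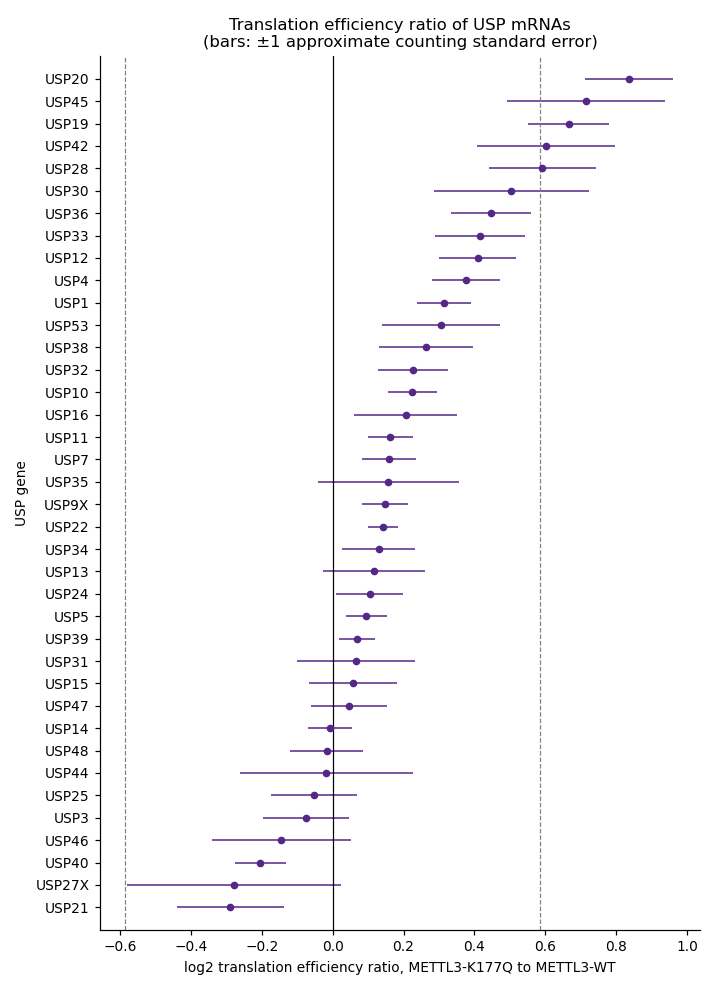
Log2 translation efficiency in METTL3-K177Q relative to METTL3-WT cells (x axis) of 38 USP genes in order of size, with bars of 1 approximate counting standard error that do not cover variation between cultures, and dashed lines at 1.5-fold. The values run from -0.29 for USP21 to 0.84 for USP20, 29 of the 38 points lie above 0, and the bars of USP45, USP19, USP42, USP28 and USP30 cross the upper dashed line.

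No member reached a 1.5-fold lower translation efficiency ratio. The lowest values were those of USP21 (-0.29 ± 0.15), USP27X (-0.28 ± 0.30), USP40 (-0.20 ± 0.07) and USP46 (-0.14 ± 0.20). USP21 had the highest sub-polysome value in METTL3-K177Q cells among its 4 values, and its polysome values were nearly equal. USP27X, a close relative of USP22, was at 1.36, 1.11, 1.35 and 0.892 FPKM, with the METTL3-K177Q polysome library lowest. USP40 was at 11.3, 10.2, 12.6 and 9.81 FPKM, with both sub-polysome values above both polysome values. USP46 was at 1.08, 1.14, 1.03 and 0.971 FPKM, a narrow range in which no library stood apart.

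The USP mRNAs are long, and over all mRNAs the translation efficiency ratio was higher in those with a longer coding sequence. The members' median coding sequence was 2824.5 bases, against 1317 bases over all mRNAs, and the whole transcript had a median of 5031 against 3104 bases. Spearman's rho of coding-sequence length with the translation efficiency ratio was 0.46 over 10291 mRNAs and 0.18 over the 38 members. Among the 1466 mRNAs with a coding sequence within the members' quartiles (2190.75 to 3406.5 bases), the median translation efficiency ratio was 0.17, 74.9% were above 0, 5.59% were at least 1.5-fold higher and 1.30% were lower. The members' median of 0.15 was thus close to that of mRNAs of like length. When the trend on length was removed the members' median was -0.03, with USP20 (0.66) the only member left past 1.5-fold. Of all genes 2.99% were then higher and 3.83% lower. In the same band the median ratio in sub-polysome RNA was -0.13, against -0.20 in the members, and 31.9% of mRNAs were above 0 there, against 13.2% of members. The band's median polysome to sub-polysome ratio was 0.30 in METTL3-WT and 0.49 in METTL3-K177Q cells, against 0.03 and 0.31 in the members.

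Within the family, the 13 members with the shortest coding sequences (1098 to 2442 bases) had a median translation efficiency ratio of 0.07, the middle 13 had 0.16 and the longest 12 (3369 to 10638 bases) had 0.14. All mRNAs in the same length ranges had medians of 0.05, 0.17 and 0.26. The longest members were near the middle of the family. USP34, which acts on axin in Wnt signalling and has the longest coding sequence of the family, 10638 bases, was at 2.37, 3.48, 1.91 and 3.09 FPKM with a ratio of 0.13 ± 0.10. USP24, the next longest at 7860 bases, was at 2.93, 3.83, 2.88 and 4.06 FPKM with a ratio of 0.10 ± 0.09. In both, the polysome values were above the sub-polysome values in both genotypes. USP9X, which acts on MCL1 and SMAD4 and has a coding sequence of 7662 bases, had a ratio of 0.15 ± 0.07, and its reads may be shared with the Y-linked copy USP9Y.

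**Figure D5:**
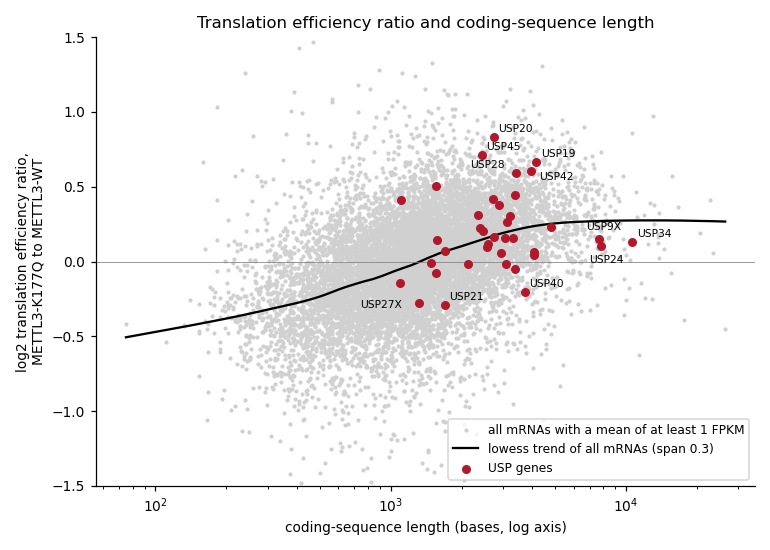
Log2 translation efficiency in METTL3-K177Q relative to METTL3-WT cells (y axis) against coding-sequence length in bases (log x axis), with USP genes in red, all kept mRNAs in grey and their lowess trend as a line; 52 mRNAs lie outside the y axis. USP20, USP45, USP19, USP42 and USP28 lie well above the trend, and the longest members USP9X, USP24 and USP34 lie below it.

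Grouped by where they act, the 6 kept members of membranes and vesicle traffic (of 8) had the highest median translation efficiency ratio, 0.46, and all 6 were above 0 and lower in METTL3-K177Q sub-polysome RNA. They were USP19, USP20, USP30, USP33, USP32 and USP10, and 2 of them, USP19 and USP20, were past 1.5-fold. The 3 members that act in the nucleolus or in splicing, USP36, USP39 and USP42, had a median of 0.45, with USP42 past 1.5-fold. The 13 kept members of genome maintenance and chromatin (of 17) had a median of 0.14, 8 were above 0, and 2, USP28 and USP45, were past 1.5-fold. The 7 kept members of signalling (of 10) had a median of 0.13 with 5 above 0, and 0 were past the limit, USP12 being highest at 0.41 ± 0.11. Placed under ubiquitin recycling were USP5, USP14 and USP13, a relative of USP5 with little activity on free chains. These 3 had a median of 0.10 and lay between -0.01 and 0.12. USP14, which trims ubiquitin at the proteasome, was nearly the same in both genotypes, 1.48-fold higher in the polysome in METTL3-WT and 1.47-fold in METTL3-K177Q cells. The remaining 6 kept members (of 10) had a median of 0.13. These groups were drawn up by hand, are small and were not tested against each other.

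Close relatives within the family often differed in level and in polysome share. USP5 and USP13 share their domain order, but USP13 has little activity on free chains. USP13 was at 2.00, 1.89, 1.90 and 1.95 FPKM, so that USP5 was 18.0-fold more abundant in mean FPKM. The log2 polysome to sub-polysome ratio of USP5 exceeded that of USP13 by 1.28 ± 0.11 in METTL3-WT and by 1.25 ± 0.11 in METTL3-K177Q cells, and their translation efficiency ratios differed by -0.02 ± 0.15. A like contrast held for USP38 and USP35. USP38 was at 3.53, 2.47, 2.48 and 2.09 FPKM and USP35 at 1.63, 2.78, 1.14 and 2.20 FPKM. USP38 was higher in the sub-polysome and USP35 in the polysome in both genotypes, and their METTL3-WT ratios differed by -1.24 ± 0.15.

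USP1, USP12 and USP46 all bind WDR48. USP1, which takes monoubiquitin off FANCD2 and PCNA, was at 19.2, 17.0, 13.4 and 14.8 FPKM, highest in the METTL3-WT sub-polysome. Its METTL3-WT log2 ratio exceeded that of USP12 by 1.01 ± 0.09, and that of USP12 was below that of USP46 by a difference of -1.26 ± 0.15. The 3 thus ranged from a polysome value under the sub-polysome value in both genotypes (USP12) to nearly equal fractions (USP46).

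USP20 and USP33 both act on the beta2-adrenergic receptor. USP33 was at 5.25, 5.17, 3.64 and 4.82 FPKM, with only the METTL3-K177Q sub-polysome value apart from the others. The METTL3-WT ratio of USP20 was higher by 0.76 ± 0.12 and its translation efficiency ratio by 0.42 ± 0.18. USP25, which acts on TRAF3, is the relative of USP28 and was at 4.23, 3.78, 4.41 and 3.79 FPKM, with both sub-polysome values above both polysome values. Its translation efficiency ratio of -0.05 ± 0.12 was lower than that of USP28 by a difference of -0.64 ± 0.19.

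USP11, USP4 and USP15 share an arrangement of DUSP and ubiquitin-like domains. USP4, which acts on the TGF-beta receptor, was at 7.57, 10.6, 6.62 and 12.0 FPKM. USP15, which acts in the same pathway, was at 1.18, 1.84, 1.08 and 1.77 FPKM. All 3 were higher in the polysome in both genotypes, USP11 by the most, and the METTL3-WT ratio of USP11 exceeded that of USP4 by 0.82 ± 0.08 and that of USP15 by 0.69 ± 0.10. Their translation efficiency ratios were 0.16, 0.38 and 0.06.

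USP16, USP3 and USP45 share a zinc finger that binds ubiquitin, and the first 2 act on histone H2A. USP16 was at 6.05, 5.99, 4.14 and 4.74 FPKM, with both METTL3-K177Q values lower. USP3 was at 4.06, 3.70, 4.30 and 3.72 FPKM, with sub-polysome above polysome. The translation efficiency ratio of USP3 was below that of USP45 by a difference of -0.79 ± 0.25. USP36 was at 4.14, 4.67, 3.54 and 5.47 FPKM and, like USP42, had its lowest value in the METTL3-K177Q sub-polysome and its highest in the METTL3-K177Q polysome library. Their translation efficiency ratios, 0.45 and 0.60, differed by -0.16 ± 0.22. USP22 was 30.6-fold more abundant than USP27X in mean FPKM, and its translation efficiency ratio of 0.14 exceeded that of USP27X by 0.42 ± 0.30.

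Of the members usually classed as inactive, USP39 had a translation efficiency ratio of 0.07 ± 0.05. USP53 was at 2.33, 1.44, 1.96 and 1.51 FPKM, with both polysome values below both sub-polysome values, and had a ratio of 0.31 ± 0.17. Its annotated 5' untranslated region of 1102 bases holds 17 ATGs, the most among the kept members. USP54 missed the minimum with a mean of 0.971 FPKM and was at 0.819, 1.13, 0.703 and 1.23 FPKM, higher in the polysome in both genotypes.

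The other 12 members under the minimum were detected weakly or not at all. Their highest value in any library was 1.22 FPKM for USP43, 1.03 for USP37, 1.01 for the interferon-induced USP18, 0.795 for USP49, 0.561 for USP8, which acts on receptors at endosomes, and 0.161 for USP2, which acts on cyclin D1. USP51, the testis gene USP26 and USP6, a hominoid relative of USP32, reached at most 0.021, 0.0087 and 0.0042 FPKM. USP29, USP50 and USP9Y were listed at 0 in all 4 libraries. Reads of USP6 and USP32 may be shared, since the genes are near copies over much of their length.

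Other deubiquitinases, partner proteins of USPs and the E1 and E2 enzymes of ubiquitin transfer were described beside the family; over all 10905 genes the median translation efficiency ratio was -0.01, with 4.08% at least 1.5-fold higher and 7.03% lower. Of 38 deubiquitinases of other families or names, 29 passed the minimum, with a median translation efficiency ratio of 0.10 and 2 past 1.5-fold, both higher: OTUD3 (0.60), of the OTU family, and MINDY2 (0.82), which cuts long ubiquitin chains. OTUD3 was at 1.33, 1.40, 0.891 and 1.49 FPKM and MINDY2 at 1.47, 1.04, 0.818 and 1.07 FPKM. As in USP20 and USP42, the lowest value of each was that of the METTL3-K177Q sub-polysome library. All 13 partner genes of USPs passed the minimum, with a median of 0.11, and 0 were past the limit in either direction. The 34 kept ubiquitin-conjugating E2 genes (of 35) had a median of 0.01 and the 2 activating E1 genes a median of 0.04, also with 0 past the limit. Median coding sequences were 1308 bases in the other deubiquitinases, 1707 in the partner genes, 549 in the E2 and 3165 in the E1 genes. The part of length in the differences between these lists was not tested.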

How the data were processed

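RNA-seq of gradient fractions covered 4 libraries, from the sub-polysome and polysome pools of MDA-MB-231 cells with METTL3-WT or METTL3-K177Q (replicate 2 in the labels, 1 library per group). Libraries were poly(A)-selected and strand-directional. The authors deposited FPKM values per gene. The submitters' processing notes name STAR 2.7, StringTie 2.1.5 and hg38, without order, and the annotation is not given in the sources used here. Another 4 value columns, headed as replicate 1 of the same groups, match no sample in the labels used and were left out.

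Genes averaging 1 FPKM or more in the 4 libraries were kept, and log2 ratios were computed with a pseudocount of 0.1 FPKM. Higher or lower means at least 1.5-fold, the limit the study uses. With 1 library per group no test was made. Members, lists and named genes were chosen with earlier results of these data known: named were the most abundant, the extremes of each ratio, relatives, inactive members and genes past 1.5-fold. Medians of lists are set against those of all genes. Of the lists, 1 is not reported here.

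The file holds no counts. The product of FPKM and transcript length falls into steps where it is low, and the lowest step was read as 1 fragment, its limits being set after the values were seen. This approximate depth gave the counting standard errors, which do not cover variation between cultures. Lengths, positions and sequences are those of canonical GENCODE 44 transcripts on GRCh38, matched by symbol for 51 members, and the authors' annotation may differ. Python 3.11.15 was used with statsmodels 0.14.6, biopython 1.88, numpy 2.4.6 and pandas 2.3.3, and the calculation was tested on simulated data. Alternatives were a pseudocount of 1 FPKM, no filter, a minimum mean of 5 FPKM, TPM, size factors, centring, removal of a lowess trend on coding-sequence length (span 0.3) and a 2-fold limit. A minimum of 1 FPKM in each library and the comparison with mRNAs of like coding-sequence length were added after the data were seen.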

Additional observations from a re-analysis of the deposited data

Results flagged for a closer look

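In 9 members the polysome to sub-polysome ratio pointed in opposite directions in the genotypes, which drew attention to them. The share of all genes that did so was not computed, so this is not shown to be particular to the members. With 1 library per group the difference between the genotypes was not tested. USP42 had a log2 ratio of -0.11 in METTL3-WT and 0.50 in METTL3-K177Q cells, a translation efficiency ratio of 0.603. For USP28 the ratios were -0.30 and 0.29, a difference of 0.592. USP30 went from -0.19 to 0.31, a difference of 0.504, and its antisense gene USP30-AS1 shares exon bases with it. USP33 was at -0.02 and 0.40, a difference of 0.416. USP1 was at -0.18 and 0.14, a difference of 0.314. In USP16 (0.206), USP13 (0.117), USP31 (0.0662) and USP46 (-0.145, the only member higher in the polysome in METTL3-WT and lower in METTL3-K177Q cells) at least 1 of the ratios was within 0.1 of 0.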

How the results depend on the processing

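No paired analysis was possible because each group had 1 library that the labels list. Of 950 values of single members over the 5 alternatives that can move such a value, 692 stayed within their 95% counting interval, 257 moved outside it and 1 reversed, the METTL3-K177Q polysome to sub-polysome ratio of USP34, which was -0.299 once the coding-sequence length trend was taken out. There the medians also reversed for the polysome to sub-polysome ratio in METTL3-WT (-0.263) and METTL3-K177Q cells (-0.246) and for the translation efficiency ratio (-0.0307), and the sub-polysome median was -0.0728. The numbers past 1.5-fold were then 3 higher in METTL3-WT, 4 higher and 8 lower in METTL3-K177Q, and 1 in translation efficiency. Of all genes 21.0% were higher in METTL3-WT, 21.5% higher and 21.8% lower in METTL3-K177Q, and 2.99% higher in translation efficiency. As TPM the polysome median reversed to 0.0885, and the medians were 0.733 in METTL3-K177Q, -0.396 in sub-polysome RNA and 0.442 in translation efficiency. The medians of all genes as TPM were 0.0684, 0.590, -0.207 and 0.286. Past 1.5-fold were 13 higher and 3 lower in METTL3-WT, against 34.2% and 15.7% of all genes. In METTL3-K177Q 24 were higher and 1 lower, against 50.2% and 12.6%. In sub-polysome RNA 9 were lower, against 9.85%, and in translation efficiency 12 were higher, against 18.6%. Size factors and centring each gave 8 higher in METTL3-K177Q, against 25.4% and 23.5% of all genes. A pseudocount of 1 FPKM shrinks low genes by construction. It gave 2 lower in METTL3-WT, 7 higher in METTL3-K177Q, 0 lower in sub-polysome RNA and 1 (USP20) higher in translation efficiency. The shares of all genes were 16.0%, 26.0%, 0.917% and 1.46%. A minimum mean of 5 FPKM left 18 members, with 2 lower in METTL3-WT and 8 higher in METTL3-K177Q, against 17.1% and 32.3% of all genes. There were 0 lower in sub-polysome RNA and 2 higher in translation efficiency, against 1.03% and 1.22%. Without a filter 3 were lower in sub-polysome RNA, against 7.68% of all genes, and with at least 1 FPKM in each library 0, against 1.96%. At 2-fold there were 3 higher and 1 lower in METTL3-WT, against 12.5% and 9.91% of all genes. In METTL3-K177Q 4 were higher and 1 lower, against 14.3% and 12.7%. In sub-polysome RNA 0 were lower, against 0.495%, and 0 were past the limit in translation efficiency, against 0.770% higher and 1.90% lower. TPM, size factors and centring shift all genes of a comparison by nearly the same amount, by construction. The cause of the remaining moves was not tested. At this depth the counting error limits members near 1 FPKM most: for USP27X it was 0.30, above its translation efficiency ratio of -0.28 in size.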
